A study of Bos taurus with 4 samples.

Results

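Leptin (LEP, cluster Bt.1939) and adiponectin (ADIPOQ, cluster Bt.109637) were followed in subcutaneous fat from cattle of the Chinese Qinchuan breed. They are 2 genes of the 36373 transcript clusters in the deposited tables. Both were taken by name, together with the opposite order of their levels among the adult libraries. The fetal library (ATFB) came from back fat at 200 to 250 days. The adult libraries came from bulls (ATAB), from heifers (ATAH) and from steers (ATAS), which are castrated males, all aged 18 to 24 months by the sample labels. Tissue of 5 animals was pooled per group and sequenced as 1 poly(A) RNA library, so that no group had a replicate and animal-to-animal differences could not be measured. The 3 adult groups shared the breed, the age range and the depot, and no genotype or drug treatment was given for any group. The counted reads per library ranged from 15300000 to 16100000, rounded to 3 digits. Levels are given as RPKM, in which a count is divided by the length of its sequence and the total of its library, so that different genes can be compared per length. XIST, the RNA of the inactive X chromosome, was at 36.3 RPKM in the fetal and 28.1 in the heifer library but at 0.193 and 0.276 in the bull and steer libraries, and the Y-linked EIF2S3Y had 0 reads in ATFB and ATAH beside 119 in ATAB and 111 in ATAS, so that in the ATFB comparisons with ATAB and ATAS stage and sex cannot be told apart.

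Leptin is a hormone that fat cells release into the blood in proportion to stored fat. It acts through its receptor LEPR in the brain and elsewhere to restrain feeding and adjust energy use. Adiponectin is an abundant plasma protein made almost entirely by adipocytes, which acts through ADIPOR1 and ADIPOR2 to raise fatty acid oxidation and insulin sensitivity, and in many mammals its plasma level falls as fat mass grows while that of leptin rises. It is built as trimers that contain a collagen-like stretch, and the trimers are joined by disulfide bonds into larger complexes inside the endoplasmic reticulum.

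The sequences against which the reads were counted hold the complete coding region of both genes. The LEP sequence is 2930 bases long, with coding bases 48 to 551 for 167 residues, and the ADIPOQ sequence is 2510 bases long, with coding bases 22 to 744 for 240 residues. The start of the LEP coding region is shown to identify the transcript, with the start codon in capitals. The collagen-like stretch of ADIPOQ is shown for its 22 uninterrupted glycine-X-Y repeats, with the first codon of each repeat in capitals.
LEP codons 1 to 30: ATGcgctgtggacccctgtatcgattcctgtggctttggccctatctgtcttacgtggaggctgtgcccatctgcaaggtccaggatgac
ADIPOQ codons 37 to 102: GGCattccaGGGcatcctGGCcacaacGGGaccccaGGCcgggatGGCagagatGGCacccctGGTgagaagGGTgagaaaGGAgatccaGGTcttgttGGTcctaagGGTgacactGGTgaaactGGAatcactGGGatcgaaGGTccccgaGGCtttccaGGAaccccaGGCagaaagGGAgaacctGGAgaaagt
The LEP sequence matched no other cluster at an identity of 95% or more over at least 100 bases, and the ADIPOQ sequence matched 2 unnamed clusters, both on the opposite strand and within bases 1765 to 2502, which lie after its coding region.

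LEP was scarce in fetal fat and abundant in adult fat. Its counts were 145 reads in the fetal, 6078 in the bull, 5370 in the heifer and 3408 in the steer library. In RPKM, the level was 3.24 in ATFB (95% exact Poisson counting interval 2.73 to 3.81), 128 in ATAB (125 to 132), 118 in ATAH (114 to 121) and 74.8 in ATAS (72.3 to 77.3). The fetal value lay far below those of the adult libraries, and among the adults ATAB and ATAH stood close together above ATAS. Reads covered 90.3% of the LEP sequence in ATFB and 99.97% in each adult library. By RPKM, LEP ranked 14487 of the 31236 clusters with reads in ATFB, and 537, 599 and 1085 among those of ATAB, ATAH and ATAS.

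ADIPOQ was already abundant before birth. It had 10010 reads in the fetal, 39808 in the bull, 45007 in the heifer and 58512 in the steer library, which is 261 RPKM (256 to 266), 982 RPKM (972 to 992), 1150 RPKM (1140 to 1161) and 1498 RPKM (1486 to 1511). The levels thus rose from ATFB through ATAB and ATAH to ATAS, and no 2 of these intervals overlapped. The intervals cover counting error alone, and since the reads carry no molecular identifiers they are not independent molecules. By RPKM, ADIPOQ ranked 316 in fetal fat and 54, 39 and 27 in bull, heifer and steer fat. Its sequence was covered to 99.0% in ATFB and to between 97.0% and 97.6% in the adult libraries.

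**Figure D1:**
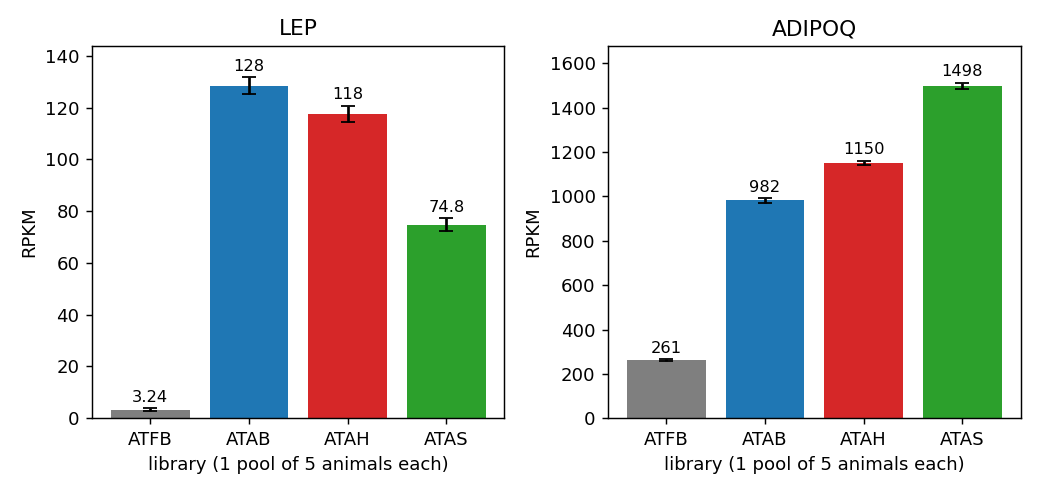
RPKM of LEP (left) and ADIPOQ (right) in the 4 libraries, each 1 pool of 5 animals, on axes that start at 0; bars are the deposited values and the whiskers are 95% Poisson counting intervals. LEP is near the floor of its axis in ATFB (3.24) and lowest of the adults in ATAS (74.8), whereas ADIPOQ is highest in ATAS (1498).

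Because the ratio of the 2 genes inside a library does not depend on how libraries are scaled to each other, it was computed from the reads per base of each gene. ADIPOQ exceeded LEP 80.6-fold in the fetal library (95% exact Clopper-Pearson interval 68.4 to 95.6), 7.65-fold in ATAB (7.44 to 7.86), 9.78-fold in ATAH (9.51 to 10.1) and 20.04-fold in ATAS (19.4 to 20.8). The fetal ratio was 10.5 times that of ATAB, 8.24 times that of ATAH and 4.02 times that of ATAS. Among the adults, the ratio in ATAS was 2.62 times that in ATAB (2.51 to 2.74, from the 4 read counts on the log scale) and 2.05 times that in ATAH (1.96 to 2.14), while ATAH exceeded ATAB 1.28-fold (1.23 to 1.33). The order ATFB, ATAS, ATAH, ATAB was the same when the reads of each gene were also divided by the share of its sequence covered, which gave 73.5, 20.7, 10.02 and 7.84. The opposite direction of the 2 genes among the adult libraries was part of how they were chosen, so the adult ratios restate that choice and are a description. With 1 pooled library per group, none of these ratios had a replicate check.

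**Figure D2:**
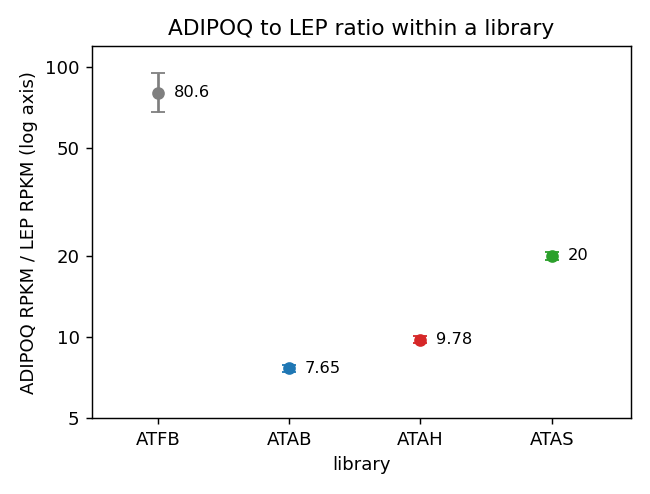
ADIPOQ RPKM divided by LEP RPKM within each library, on a log axis, with 95% Clopper-Pearson intervals of the read share. The ratio is 80.6 in ATFB and between 7.65 (ATAB) and 20.04 (ATAS) in the adult libraries.

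The next question was how both genes differed between fetal and adult fat. With library totals as the scaling, LEP was higher than in ATFB by 5.31 on the log2 scale in ATAB (39.6-fold, interval 33.6 to 47.1), by 5.18 in ATAH (36.3-fold, 30.8 to 43.1) and by 4.53 in ATAS (23.1-fold, 19.5 to 27.4). ADIPOQ was higher by 1.91 in ATAB (3.76-fold, 3.68 to 3.85), 2.14 in ATAH (4.41-fold, 4.31 to 4.50) and 2.52 in ATAS (5.74-fold, 5.62 to 5.86), with the exception of scaling by adipocyte markers, under which ATAB and ATAH fell below ATFB. These 3 comparisons share the ATFB library. Both genes were called in all 3, a call being an FDR of 0.001 or less in an exact binomial test of the reads of the 2 libraries and a change of at least 2-fold. Such a call compares 2 libraries and not 2 conditions. Of all clusters tested, 22.6% were called between ATFB and ATAB, 23.7% between ATFB and ATAH and 26.0% between ATFB and ATAS, and 9.51%, 13.9% and 15.5% were called higher in the adult library. When a biological coefficient of variation of 0.4 between libraries was assumed, LEP was called in all 3 comparisons and ADIPOQ in 0.

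Against the 3 adult libraries as a group, LEP was higher than in ATFB by 5.04 on the log2 scale (33.0-fold, adjusted p = 0.00948, edgeR quasi-likelihood test) and ADIPOQ, scaled by TMM factors like LEP, by 2.17 (4.50-fold, adjusted p = 0.0294 by the same test), each higher in 3 of 3 adult libraries. Here 18.2% of 25584 clusters had an adjusted p of 0.05 or less, and 9.83% of them passed and were higher in the adult libraries. The fetal side was 1 library, so these p-values compare that library with the adult ones and do not measure the spread among fetal samples. The spread in this test came from adult libraries of different sex and castration state, not from replicates. For ADIPOQ, the adjusted p was 0.121 without ATAH and 0.0509 without ATAS, and over all settings tried it ranged from 3.48e-08 to 0.121. For LEP it ranged from 4.31e-23 to 0.0127.

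The fetal and adult libraries also differed in their content of adipocyte transcripts, and the 2 genes took different positions within that difference. Of 15 adipocyte markers with a named cluster, 14 were called higher than in ATFB in the bull library, 14 in the heifer and 10 in the steer library, with 0 called lower. Of all clusters, 9.51%, 13.9% and 15.5% were called higher and 13.1%, 9.83% and 10.5% lower in these libraries. The medians of their log2 ratios were 2.61, 2.66 and 2.03, beside medians of -0.18, 0.11 and 0.13 over all clusters tested. LIPE, the hormone-sensitive lipase, had 39.9 RPKM in the fetal, 505 in the bull, 767 in the heifer and 1024 in the steer library. CIDEC, a lipid droplet protein, had 168, 1470, 1743 and 1607 RPKM in the same order. LEP rose more than each of the 15 markers in ATAB and ATAH, and in ATAS more than each of them but LIPE, whose log2 ratio was 4.68. ADIPOQ lay below the marker median in ATAB and ATAH and above it in ATAS.

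When the geometric mean of the 15 adipocyte markers was used to scale the libraries, LEP was still called in each adult library, its log2 ratios over ATFB being 2.83 (ATAB), 2.66 (ATAH) and 2.45 (ATAS). ADIPOQ on that scale was lower than in ATFB by the values -0.56 in ATAB and -0.38 in ATAH, and higher by 0.44 in ATAS, and was called in 0 of the 3. Relative to other adipocyte transcripts, the difference between fetal and adult fat was thus large for LEP and under 2-fold for ADIPOQ. In a bulk library, fewer cells of a type and less RNA per cell cannot be told apart.

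**Figure D3:**
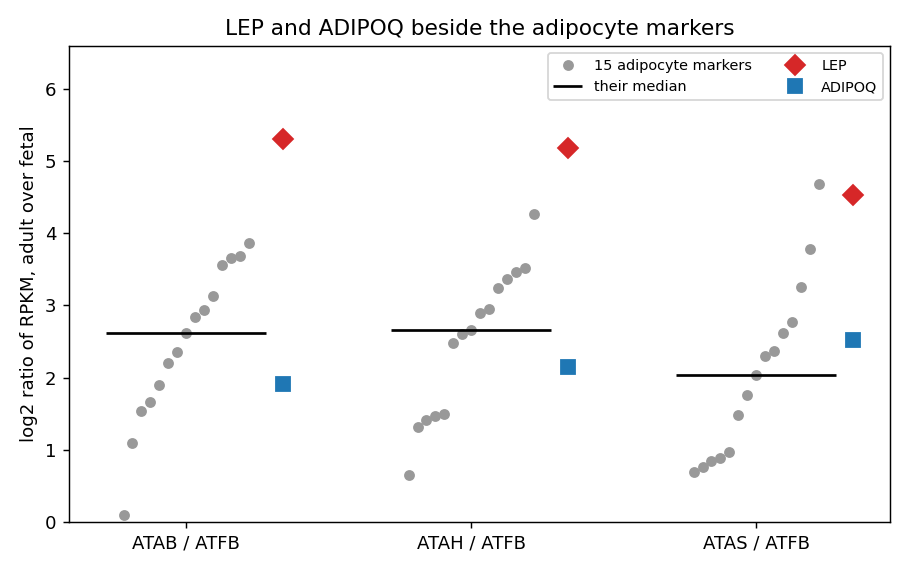
Log2 ratio of RPKM of each adult library over ATFB for LEP (diamond), ADIPOQ (square) and the 15 adipocyte markers (grey points, sorted by value, with their median as a line), scaled by library totals. LEP lies above every marker in ATAB and ATAH and under LIPE alone in ATAS, and ADIPOQ lies near the middle of the markers, its ratios in ATAB and ATAH turning negative when the markers are the scaling (-0.56 and -0.38).

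Transcripts of other cell types differed between the same libraries. The summed level of 11 stromal and preadipocyte markers was 14991 RPKM in the fetal, 10036 in the bull, 3222 in the heifer and 4236 in the steer library. COL1A1, COL1A2, COL3A1 and DCN made up most of each sum, and the list medians were 393, 217, 198 and 215 RPKM. Against ATFB, 0 markers were called higher and 3 lower in ATAB, and 1 (PDGFRB) and 6 in each of ATAH and ATAS. The shares over all clusters were 9.51%, 13.9% and 15.5% higher and 13.1%, 9.83% and 10.5% lower. DLK1, which marks preadipocytes, had 566 RPKM in ATFB and 0 reads in ATAB. The red cell genes HBG2 and ALAS2 summed to 2390 RPKM in ATFB and to at most 1.54 in the adult libraries. The 11 leukocyte markers summed to 332 RPKM in the fetal, 847 in the bull, 1113 in the heifer and 1995 in the steer library, CD79A being at 0 in ATAB. Most of each sum was CD74 (206, 624, 900 and 1663 RPKM), and the list medians were 2.29, 7.91, 9.59 and 16.8 RPKM. The 8 endothelial markers summed to 691, 589, 819 and 1106 RPKM. The 4 skeletal muscle markers summed to at most 62.9 RPKM, ACTA1 having at most 3.90. The part of these differences in the levels of LEP and ADIPOQ was not tested.

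Among the adult libraries the order of LEP and ADIPOQ was part of how the genes were chosen, and it is given as a description with no test. Scaled by totals, LEP in ATAH stood at -0.13 on the log2 scale against ATAB (interval -0.18 to -0.07), and in ATAS at -0.78 against ATAB (-0.84 to -0.72) and -0.65 against ATAH (-0.72 to -0.59). ADIPOQ in ATAH stood at 0.23 against ATAB (0.21 to 0.25), and in ATAS at 0.61 against ATAB (0.59 to 0.63) and 0.38 against ATAH (0.36 to 0.40). No ratio reached 2-fold on this scale. The step between ATAB and ATAH was the smallest for both genes.

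The bull library carried a general shift that bears on this order. Over clusters with at least 10 reads, the median log2 ratio was 0.29 for ATAH over ATAB, 0.33 for ATAS over ATAB and 0.05 for ATAS over ATAH when scaled by totals, so that most clusters were lower in ATAB. Of the clusters called between ATAB and ATAH 77.1% were higher in ATAH with totals and 48.8% with TMM factors, and for ATAS these shares were 78.6% and 49.2%. TMM factors moved the medians by -0.28 and -0.29. The 17 clusters that made up the 10 most-read of any library held 19.6% of the reads in ATAB, 14.7% in ATAH and 10.5% in ATAS. With the TMM factors of edgeR, LEP kept its order, with -0.40 for ATAH over ATAB, -1.08 for ATAS over ATAB and -0.67 for ATAS over ATAH. ADIPOQ stayed highest in ATAS, at 0.31 over ATAB and 0.36 over ATAH, but ATAB and ATAH changed places, with -0.05 for ATAH over ATAB by TMM and by DESeq2 size factors. With ACTB (1592 to 1923 RPKM over the 4 libraries) or the adipocyte markers as the scaling, both genes kept the order they had with totals. The highest and the lowest library of LEP and the highest of ADIPOQ were therefore the same under the 5 scalings, whereas the lowest adult library of ADIPOQ was not.

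**Figure D4:**
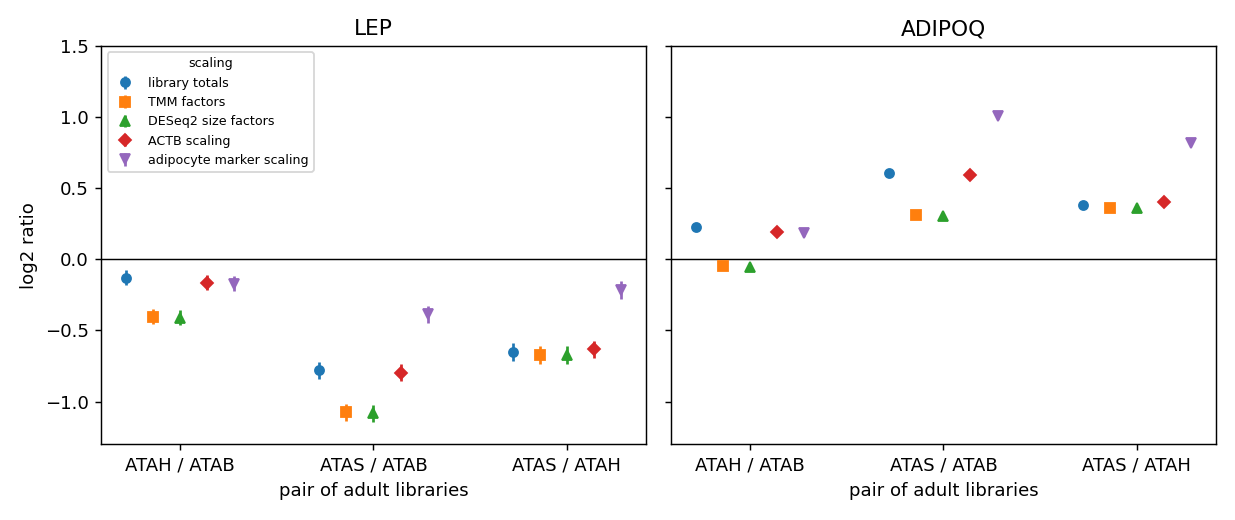
Log2 ratios of LEP (left) and ADIPOQ (right) between adult libraries under 5 scalings, with 95% counting intervals. Every LEP ratio is below 0, and the ADIPOQ ratios are above 0 except for ATAH over ATAB with TMM or DESeq2 factors (-0.05).

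Over 17205 clusters with at least 100 reads in the adult libraries, 10.6% had the LEP order (ATAB above ATAH above ATAS) and 40.9% had the ADIPOQ order (ATAS above ATAH above ATAB) when scaled by totals. With TMM factors 20.9% had the LEP order, and 14.2% had the order that ADIPOQ takes on that scale (ATAS above ATAB above ATAH). For ATAS over ATAB, 5.03% of the clusters had a lower ratio than LEP, and 69.6% had a lower ratio than ADIPOQ. For ATAS over ATAH, 6.40% were below LEP and 78.8% below ADIPOQ. These shares come from the adult values by which the genes were chosen and are a description.

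Scaled by totals, the adipocyte markers split between the 2 patterns. Of the 15, 6 had the LEP order (LPL, DGAT2, GPD1, AGPAT2, PCK1 and LGALS12) and 5 had the ADIPOQ order (PLIN1, LIPE, CD36, DGAT1 and FABP5). Of the 17205 clusters, 10.6% and 40.9% had these orders. DGAT2, which makes the last bond of triglyceride, had 3224 RPKM in ATAB, 2367 in ATAH and 1296 in ATAS. AGPAT2, which acts earlier in that pathway, had 1638, 1244 and 382 RPKM. DGAT1, which catalyses the same step as DGAT2, had the ADIPOQ order, as had the droplet coat protein PLIN1, with 520 RPKM in bull, 834 in heifer and 1005 in steer fat. With TMM factors, 10 markers had the LEP order and 0 the order that ADIPOQ takes on that scale, while 4 had ATAS above ATAH above ATAB. On that scale 20.9%, 14.2% and 25.6% of the 17205 clusters had these orders. Between ATAB and ATAS, 5 markers were called lower in ATAS (CIDEA, DGAT2, AGPAT2, PCK1 and LGALS12) and LIPE was called higher, where 8.72% of all clusters were called, 6.86% higher and 1.87% lower. Under TMM these counts were 6 and 0.

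The leptin receptor gene LEPR had few reads, 2 in fetal, 6 in bull, 15 in heifer and 46 in steer fat, and its level per length never passed 0.845 RPKM. It was called higher in ATAS than in each of the other libraries, at 2.99 on the log2 scale over ATAB and 1.62 over ATAH, so that the library with the least LEP of the adults had the most LEPR. LEPROT, which starts from the same promoter in many mammals, had 107 RPKM in ATFB and 55.0 to 60.6 in the adult libraries, and reads from shared exons could be split between the 2 genes. SOCS3, a feedback inhibitor of the receptor that other cytokines also induce, had 7.76 RPKM in the fetal, 9.64 in the bull, 27.6 in the heifer and 52.9 in the steer library. CISH, of the same family, had 10.5, 4.35, 9.53 and 19.3 RPKM.

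Of the 9 genes of leptin receptor signalling with a named cluster, 3 were called higher in ATAS than in ATAB (LEPR, SOCS3 and CISH) and 0 lower, where 6.86% of all clusters were called higher and 1.87% lower. Between ATAB and ATAH, SOCS3 and CISH were called higher in ATAH and 0 genes lower, where 5.37% of all clusters were called, 4.14% higher and 1.23% lower. Between ATAH and ATAS, LEPR and CISH were called higher in ATAS, where 3.0% of all clusters were called, 1.52% higher and 1.48% lower. Against ATFB, CISH and the phosphatase PTPN2 were called lower in ATAB, SOCS3 higher in ATAH, and LEPR, SOCS3 and the adaptor IRS1 higher in ATAS. Under TMM factors 1 gene of the list was called between ATAB and ATAH and 1 between ATFB and ATAB. The IRS1 call was lost with TMM, DESeq2 and ACTB scaling, and the CISH call between ATAH and ATAS with DESeq2 factors. Of all clusters, 13.1% were called lower than ATFB in ATAB, and 13.9% and 15.5% higher in ATAH and ATAS. STAT3, the transcription factor that the receptor activates, had 44.9 to 66.0 RPKM and was called in 0 of the 6 pairs. The median log2 ratio of the list for ATAS over ATAB was 0.58, beside 0.34 over all clusters tested. In the same pair, 11 of 11 leukocyte markers lay above 0 with 5 called, and 8 of 8 endothelial markers with 2 called, and their part in the values of this list was not tested.

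The 2 adiponectin receptors differed from each other. ADIPOR1 had 31.0 RPKM in the fetal, 43.7 in the bull, 43.7 in the heifer and 41.6 in the steer library and was called in 0 of the 6 pairs. ADIPOR2 had 19.8 RPKM in the fetal, 217 in the bull, 272 in the heifer and 282 in the steer library, which is 3.45, 3.78 and 3.83 on the log2 scale over ATFB. Adult fat thus held several times more ADIPOR2 than ADIPOR1 per length, and fetal fat did not. CDH13, or T-cadherin, which binds the large adiponectin complexes, had 68.6, 244, 336 and 289 RPKM. Both ADIPOR2 and CDH13 were called in each adult library against ATFB and in 0 of the 3 pairs of adult libraries. The adipocyte markers were higher in the same adult libraries (medians of 2.61, 2.66 and 2.03), and their part in these calls was not tested. On the scale of those markers, an alternative chosen after seeing the data, ADIPOR2 stood at 0.98 in ATAB, 1.26 in ATAH and 1.75 in ATAS over ATFB and was called in ATAH and ATAS. CDH13 on that scale was at -0.64, -0.23 and -0.0061 and was called in 0 of the 3.

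Of the 14 genes of adiponectin reception and signalling, 5 were called higher than ATFB in each adult library and 0 lower, where 9.51%, 13.9% and 15.5% of all clusters were called higher and 13.1%, 9.83% and 10.5% lower in ATAB, ATAH and ATAS. With ACTB scaling, 4 were called higher and 1 lower in ATAB. ADIPOR2, CDH13, CAMKK2 and PRKAB2 were among the 5 in every case, the fifth being PRKAA2 in ATAB and the adaptor APPL2 in ATAH and ATAS. CAMKK2, a kinase upstream of AMPK, had 3.55 RPKM in ATFB and 12.9, 17.0 and 24.6 in ATAB, ATAH and ATAS. PRKAB2, a regulatory subunit of AMPK, had 1.47, 6.30, 9.25 and 11.1. Scaled by the adipocyte markers, CAMKK2 and PRKAB2 were called higher in 0 of the 3 adult libraries, with log2 ratios below 0 for both in ATAB and for CAMKK2 in ATAH. Among the adult libraries the coactivator PPARGC1A alone was called, higher in ATAS than in ATAB (2.26 against 1.07 RPKM). In that pair 6.86% of all clusters were called higher and 1.87% lower. PPARGC1A was not called under TMM.

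By totals, the genes that fold and release adiponectin were called in both directions against ATFB. Of 12 with a named cluster, 1 was called higher and 3 lower in ATAB than in ATFB, 2 higher and 4 lower in ATAH, and 4 higher and 4 lower in ATAS. The medians of their log2 ratios were -0.49, -0.66 and -0.64. Of all clusters, 9.51% were called higher and 13.1% lower in ATAB, 13.9% and 9.83% in ATAH, and 15.5% and 10.5% in ATAS. The split of the list depended on the scaling. With ACTB, the genes called higher in ATAB and ATAH (GSTK1, and GGA1 in ATAH) fell under 2-fold, while more genes than by totals were lower by at least 2-fold. TMM and DESeq2 factors also took GSTK1 under 2-fold in ATAH. GSTK1, an oxidoreductase-like protein that promotes adiponectin assembly, had 21.0 RPKM in the fetal, 42.5 in the bull, 43.0 in the heifer and 67.2 in the steer library. ERP44, which retains adiponectin in the endoplasmic reticulum through a disulfide bond, had 55.2, 31.8, 29.2 and 34.7 RPKM. By totals it was called in 0 of the 6 pairs, at -0.92 on the log2 scale for ATAH over ATFB. TMM, DESeq2 and ACTB scaling shift that pair by -0.10, -0.14 and -0.27, which takes ERP44 past the 2-fold threshold. The ACTB shift of -0.24 does so for ATAB over ATFB too, at -0.79 by totals. The collagen-modifying enzymes P4HA1 and PLOD1 were called lower in each adult library, from 33.3 to between 7.28 and 10.1 RPKM and from 50.2 to between 16.3 and 18.6 RPKM, in libraries whose collagen genes also differed. COL1A1 had 4167 RPKM in the fetal, 3412 in the bull, 639 in the heifer and 1035 in the steer library. Between adult libraries PLOD2 was the one call of this list, at 11.8 RPKM in ATAS against 4.71 in ATAB. In that pair 6.86% of all clusters were called higher and 1.87% lower. Under TMM factors P4HB and P4HA2 were also called between these libraries, both lower in ATAS.

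Of 8 genes related to adiponectin by their C1q domain, 3 were called lower and 1 higher in ATAB than in ATFB, 5 and 2 in ATAH, and 4 and 1 in ATAS. Over all clusters, 13.1% were called lower and 9.51% higher in ATAB, 9.83% and 13.9% in ATAH, and 10.5% and 15.5% in ATAS, and the difference from these shares was not tested. C1QTNF5 had 88.5 RPKM in ATFB and 23.3, 29.0 and 29.6 in ATAB, ATAH and ATAS, and C1QTNF3 had 17.5, 4.19, 4.24 and 4.79. C1QTNF6 had 57.9, 29.7, 6.34 and 6.77 RPKM, and with C1QTNF2 was called lower in ATAH and ATAS than in ATAB. In these pairs 1.23% and 1.87% of all clusters were called lower. C1QC, a chain of complement C1q made by macrophages, was called higher in each adult library, with 38.8, 117, 152 and 185 RPKM. C1QTNF9 had 0.674 to 2.999 RPKM and was called higher in ATAH than in ATFB.

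Other adipokines took varied courses. SFRP5, a secreted WNT inhibitor, came nearest to LEP in size of difference, with 3.47 RPKM in ATFB and 91.9, 92.8 and 104 in ATAB, ATAH and ATAS, but it was not lower in ATAS. Resistin (RETN) went the other way, with 40 reads in ATFB and 2, 4 and 4 in the adult libraries. CFD, also called adipsin, had 28.1, 61.7, 98.1 and 115 RPKM, in the order of ADIPOQ. Of the adipokines with reads, 4 of 13 tested were called higher in ATAH than in ATAB and 4 of 14 in ATAS than in ATAB, namely AGT, ANGPTL4, VEGFA and C3 in both, with 0 called lower. Of all clusters, 4.14% were called higher and 1.23% lower in ATAH, and 6.86% higher and 1.87% lower in ATAS. The leukocyte and endothelial markers were higher in ATAS than in ATAB too, as given above, and their part was not tested. With TMM or DESeq2 factors 3 adipokines were called higher in each pair, VEGFA being lost in ATAH and ANGPTL4 in ATAS. VEGFA, the endothelial growth factor, had 36.1 RPKM in the fetal, 40.4 in the bull, 93.5 in the heifer and 257 in the steer library. Complement C3 had 9.45, 10.1, 59.2 and 86.5 RPKM, and angiotensinogen (AGT) had 3.70 in the bull and 26.1 in the steer library. TNF had at most 11 reads in a library, and SERPINA12 and ITLN1 at most 2.

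Of 20 listed regulators of LEP or ADIPOQ expression, 14 had a named cluster, most of them transcription factors. Of these, 7 were called higher and 1 lower in ATAB than in ATFB, 9 and 1 in ATAH, and 8 and 0 in ATAS. The share called higher over all clusters was 9.51%, 13.9% and 15.5%, and the share called lower 13.1%, 9.83% and 10.5%. The medians of their log2 ratios were 1.05, 1.73 and 2.11, beside 2.61, 2.66 and 2.03 for the adipocyte markers, which were higher in the same libraries, and the part of the latter was not tested. CEBPA, which drives both promoters in adipocytes, had 13.001 RPKM in the fetal, 54.7 in the bull, 72.1 in the heifer and 61.6 in the steer library. CEBPD, an early factor of adipocyte formation, was called lower in ATAB and ATAH, with 447, 96.4, 216 and 278 RPKM. The estrogen receptor ESR1 had 1.54 RPKM in ATFB and 9.09, 6.97 and 6.13 in ATAB, ATAH and ATAS, and was called in 0 of the 3 pairs of adult libraries.

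Between ATAB and ATAS, 7 of these 14 regulators were called higher in ATAS, with 0 lower, where 6.86% of all clusters were called higher and 1.87% lower, the median log2 ratio being 0.82 beside 0.34 over all clusters. Among them were CEBPD, SP1, HIF1A, KLF9, KLF15 and FOSL2, and under TMM 4 regulators were called. FOSL2, an AP-1 factor, had 13.1 RPKM in the fetal, 36.3 in the bull, 71.4 in the heifer and 113 in the steer library. SREBF1, a lipogenic factor, had 39.1, 61.0, 87.5 and 60.8 RPKM and was called in ATAH over ATFB alone. Between ATAH and ATAS, 0 of the 14 were called, where 3.0% of all clusters were. The leukocyte markers, of which 5 of 11 were called higher in ATAS than in ATAB, and the endothelial markers, of which 2 of 8 were, moved with these genes (3 of 11 and 0 of 8 under TMM), and their part was not tested.

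**Figure D5:**
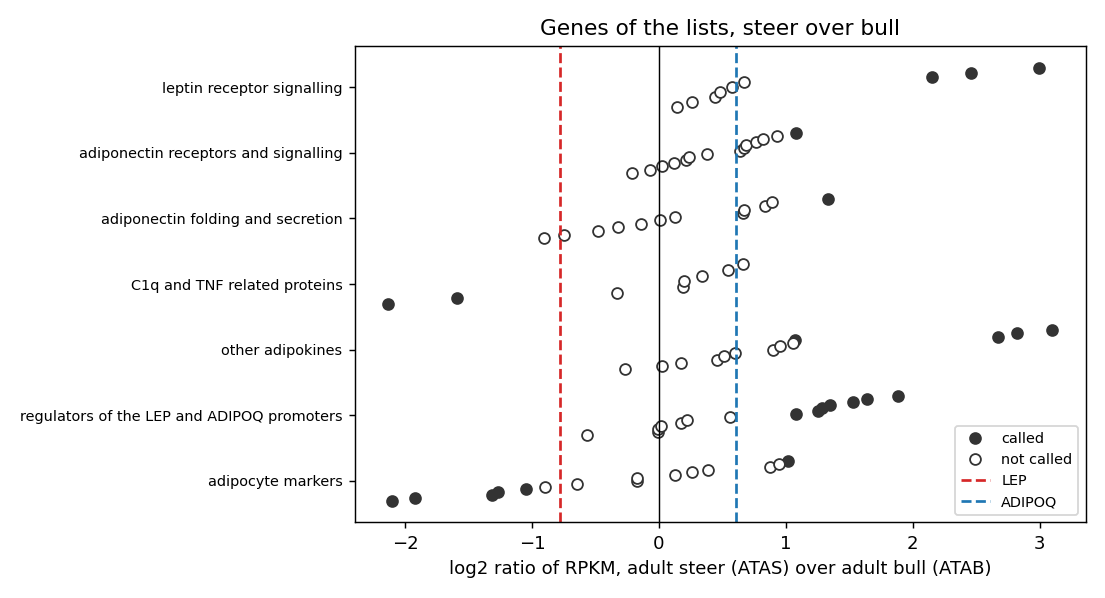
Log2 ratio of RPKM, ATAS over ATAB, for the genes of 7 lists (filled where called, open where not), scaled by library totals, with LEP (-0.78) and ADIPOQ (0.61) as dashed lines. The adipocyte markers spread to both sides of 0, while the called regulators, adipokines and leptin signalling genes lie above it.

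Finally, the genes whose levels over the 4 libraries were most like those of LEP or ADIPOQ were listed by the root mean square difference of log2 RPKM after centring each gene on its own mean, over 3451 named genes with at least 100 reads in all and a read in each library. Nearest to LEP were ARHGEF37 (0.20), UHMK1 (0.21), SCD (0.25), PIPOX (0.25) and LNPEP (0.30). SCD, which introduces the double bond of oleic acid, had 177 RPKM in the fetal, 5557 in the bull, 5493 in the heifer and 2544 in the steer library. ARHGEF37 had 15 reads in ATFB and UHMK1, PIPOX and LNPEP had 4 to 8, so that their distance rests on few reads. Nearest to ADIPOQ were MTRR (0.04), TLN1 (0.04), RBSN (0.05), ITPK1 (0.06) and CCDC142 (0.06). TLN1, which links integrins to the cytoskeleton, had 43.8, 162, 201 and 265 RPKM. With 4 libraries and 1 shared set of totals, such likeness is a description, and with Pearson's correlation in place of the distance 0 of the 5 genes remained for LEP and 0 for ADIPOQ.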

How the data were processed

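Poly(A) RNA of 4 pools was sequenced on an Illumina instrument, and reads were trimmed and aligned with SOAPaligner by the authors. CASAVA is also named per the labels, without a version. The authors deposited counts of reads per UniGene cluster without normalization, named unique reads per the file headers, the percent of each sequence covered and the RPKM computed from these counts. RPKM recomputed from the counts matched the deposited values within rounding. How uniqueness was judged between clusters is not given in the sources used here. The library preparation described by the authors names no step that keeps the strand. A symbol was given to 4630 clusters from the deposited sequence headers (description, then accession looked up in a RefSeq gene table). The cluster with most reads stood for a gene. Genes without a named cluster were not analysed here, PPARG and FABP4 of the adipocyte markers among them. Named clusters were found for 15 of 20 adipocyte markers, 14 of 20 regulators, 9 of 14 leptin receptor signalling genes and 15 of 22 other adipokines. The same held for 14 of 15 genes of adiponectin reception and signalling, 12 of 13 of folding and release, and 8 of 13 with a C1q domain. Some list members are counted but not reported here by name.

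For a pair of libraries, the reads of each cluster were set against the totals in a two-sided exact binomial test, and p-values were adjusted by Benjamini-Hochberg over all clusters with a read in either library. ATFB was compared with the 3 adult libraries by edgeR 4.0.16 (TMM factors, filterByExpr, quasi-likelihood test). DESeq2 1.42.0, other scalings, filters and thresholds were alternatives. Both scripts were tested on simulated data. Ratios of ratios had a normal interval on the log scale. A count of 0 was read as 3 reads. LEP and ADIPOQ were always named. List members could be named where called in at least 1 of the 6 pairs or where a receptor, scaling gene or defining marker, as were the 5 genes nearest to each. ERP44, TNF, SERPINA12, ITLN1 and STAT3 were named after their values were seen. The genes and lists were chosen with earlier results of these data known.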

Additional observations from a re-analysis of the deposited data

Results flagged for a closer look

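Reads fell on 2 unnamed clusters that entered no value of LEP or ADIPOQ, though they were among all clusters tested, and that share the end of the ADIPOQ sequence on the opposite strand, above the 3 reads that a count of 0 allows. Bt.73153 matched 731 aligned bases at 99.2% identity and had 28 reads over the 4 libraries (5 fetal, 10 bull, 7 heifer, 6 steer). Bt.59365 matched 701 aligned bases at 99.0% identity and had 212 reads (12 fetal, 115 bull, 50 heifer, 35 steer), so that its highest count was in the adult library with the lowest ADIPOQ level by library totals. Added to ADIPOQ, they changed its ratio to LEP from 80.6 to 80.7 in ATFB and from 7.65 to 7.67 in ATAB. The counts are named unique reads in the deposited tables, and whether reads that matched both ADIPOQ and these clusters were left out was not tested.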

How the results depend on the processing

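No paired analysis was possible because each group had 1 library. LEP was called in every fetal to adult pair under each scaling, filter and test tried. ADIPOQ was called with TMM, DESeq2 and ACTB scaling but not with an assumed coefficient of variation of 0.4 (log2 ratios 1.91, 2.14 and 2.52). With adipocyte marker scaling its ratio reversed to -0.56 in ATAB and -0.38 in ATAH and fell to 0.44 in ATAS. Those markers were themselves higher in the adult libraries, and their part was not tested. Leaving out 1 adult library, ADIPOQ stood at 2.06 to 2.24 in the edgeR test and LEP at 4.76 to 5.29. With adipocyte marker scaling, an alternative chosen for these genes after seeing the data, the log2 ratios over ATFB in ATAB, ATAH and ATAS reversed to -0.64, -0.23 and -0.0061 for CDH13, to -0.61 and -0.25 in the first 2 for CAMKK2, and to -0.38 in ATAB for PRKAB2. One library left out thus ended the ADIPOQ call, as given with that result.

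Among adult libraries, the values for ATAH over ATAB, ATAS over ATAB and ATAS over ATAH were as follows. For LEP they were -0.40, -1.08 and -0.67 with TMM, -0.41 and -1.08 in the first 2 with DESeq2 factors, and -0.39 and -0.21 in the last 2 with adipocyte marker scaling. For ADIPOQ they were -0.049, 0.31 and 0.36 with TMM, -0.054, 0.31 and 0.36 with DESeq2 factors, 0.19 and 0.40 in the first and the last with ACTB, and 0.18, 1.005 and 0.82 with adipocyte marker scaling. Totals without the most-read clusters, an alternative chosen after seeing the data, gave -0.21, -0.93 and -0.72 for LEP and 0.14, 0.46 and 0.31 for ADIPOQ.

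Over the 13 lists and 6 pairs, 264 calls were made, 404 with a fold threshold of 1.5 and 15 with the assumed coefficient of variation. That assumption left 184, 229 and 278 clusters called against ATFB, in place of 7704, 8209 and 8972, and 13, 5 and 12 between adult libraries, in place of 1819, 2942 and 1021, and the fold threshold of 1.5 gave 3705, 5803 and 2238 there. Of the ATFB to ATAB calls, 42.1% lay higher in the bull library, 53.2% with TMM and 29.4% with ACTB, and ACTB took this share from 58.6% to 42.7% for ATAH and from 59.6% to 46.0% for ATAS. Of the 5 genes most like LEP, 2 remained with at least 1000 reads and 0 with Pearson's correlation, and of those most like ADIPOQ 3 and 0. LEP had 145 reads in ATFB, which leave an interval wider, relative to its value, than that of any other level of the 2 genes.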
